A study of Rattus norvegicus with 4 samples.

Results

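The genes described here are those of the rat MHC class II pathway proper: the antigen-presenting chains RT1-Ba, RT1-Bb, RT1-Da and RT1-Db1, the invariant chain gene Cd74, the coactivator gene Ciita, and Rfx5, Rfxank and Rfxap, which encode the RFX complex. They were found by symbol, through the RefSeq accession that the array gives for each probe. All 9 were measured, by 10 probes on 21 spots, among 16581 measured genes. The samples were 4 cultures of NR8383, an alveolar macrophage line first grown from the lung lavage of a normal rat, at passage 20. Each had received carboxyl-functionalized carbon nanotubes (NRCWE042) for 4 h at 6.8 cm2 of nanotube surface per cm2 of culture, and each was read on a 1-colour Agilent array. The study set out to compare exposed with untreated cells. Untreated cells were not analysed here, so every value below is a level in exposed cells and none is an effect of the nanotubes.

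MHC class II molecules are pairs of an alpha and a beta chain that carry peptides from engulfed material to the cell surface for CD4+ T cells. The chains assemble around the invariant chain, which blocks the peptide groove until proteases remove it in endosomes. Their genes share an upstream control region with an X and a Y element, bound by RFX, CREB and NF-Y, on which CIITA assembles as the coactivator. The RFX subunits are made in most cells, whereas CIITA is made in professional antigen-presenting cells or after interferon gamma, and is regarded as the switch of the pathway. Alveolar macrophages take up inhaled particles, and their class II level is known to vary with their state.

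The upstream sequences of the 4 presenting-chain genes are shown because they carry the sites at which the regulators measured below are known to act. They come from RefSeq's GRCr8 assembly, chromosome 20, at chr20:4576907-4577026 (plus strand) for RT1-Ba, chr20:4604149-4604268 (minus strand) for RT1-Bb, chr20:4515265-4515384 (plus strand) for RT1-Da and chr20:4560193-4560312 (minus strand) for RT1-Db1. Each runs 5' to 3' on the gene's own strand from 150 to 31 bases before the annotated start. Capitals mark GCAAC, a core of the X element, and ATTGG, the core of the Y element that NF-Y reads, on the strand shown.
RT1-Ba: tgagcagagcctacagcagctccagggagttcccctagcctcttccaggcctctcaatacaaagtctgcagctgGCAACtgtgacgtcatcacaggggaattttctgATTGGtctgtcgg
RT1-Bb: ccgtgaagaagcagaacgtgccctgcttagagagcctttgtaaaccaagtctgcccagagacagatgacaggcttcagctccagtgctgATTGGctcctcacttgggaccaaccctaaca
RT1-Da: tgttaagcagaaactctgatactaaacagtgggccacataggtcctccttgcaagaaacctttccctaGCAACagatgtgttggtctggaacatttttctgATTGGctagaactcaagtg
RT1-Db1: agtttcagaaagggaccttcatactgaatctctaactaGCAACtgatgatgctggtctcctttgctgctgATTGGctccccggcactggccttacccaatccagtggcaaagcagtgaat
The Y core lay in the same setting, CTGATTGG, in all 4 windows, starting its ATTGG at 43, 61, 49 and 80 bases before the start of RT1-Ba, RT1-Bb, RT1-Da and RT1-Db1. GCAAC stood upstream of it in RT1-Ba, RT1-Da and RT1-Db1, at 76, 82 and 112 bases before the start. Over the 250 bases before the start, on both strands, CTGATTGG (which contains ATTGG) was present in 3.19% of 33469 promoters. GCAAC followed within 5 to 40 bases by ATTGG was present in 1.18% of them, and among the members in RT1-Ba, RT1-Da and RT1-Db1. ATTGG alone was found in 34.0% of promoters and GCAAC alone in 29.5%. Of the 8 members with a promoter in the table, Rfx5 was the other gene with CTGATTGG, and Cd74 held ATTGG and GCAAC without this order and distance. Ciita had no entry. These are matches of letters and do not show that a site was bound.

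Levels are log2 of the processed signal relative to the 75th percentile of the sample probes on the same array, and a gene counted as detected when the software marked a probe of it well above background on all 4 arrays. Probes differ in affinity, so a level compares arrays for 1 gene and gives no order between genes. The 4 arrays shared 1 slide and 1 scan. The 75th percentile was 128, 131, 98.5 and 49.0 signal units on replicates 1 to 4, so replicate 4 was dimmest, and replicate 3 had a dim central area. Of 12 macrophage markers 10 were detected, among them Cd68 (7.47 ± 0.24, SD, n = 4), Csf1r (0.96 ± 0.10, SD, n = 4) and Spi1 (3.73 ± 0.51, SD, n = 4), with Marco and Adgre1 on no array. Other lineages had 2 of 8 dendritic cell (Batf3 and Cd1d1), 2 of 6 B cell (Ebf1 and Pax5) and 2 of 8 T cell markers (Cd3d and Cd4) detected. Of the lung epithelium markers 0 of 8 were. These shares were 83.3% for macrophage, 25.0% for dendritic cell, 33.3% for B cell and 25.0% for T cell markers, beside 44.4% over all measured genes. The part of other lineages in the class II readings was not tested. Of the dendritic cell markers 5 were well above background on no array, among them Zbtb46, Xcr1 and Ccr7, and Clec9a was so on 2 arrays. Of the B cell markers 4 were so on no array, among them Cd79b and Cd22.

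The exposed cells carried transcripts of the RFX complex, while Cd74, Ciita and 3 of the 4 presenting chains were not well above background on all 4 arrays. RT1-Bb was on 2 arrays and Ciita on 1. All 3 RFX subunit genes were detected on all 4 arrays. Of the 5 genes for presenting chains and invariant chain, RT1-Db1 alone was detected, and Ciita was not. The total of 4 of 9 members matches the share over all measured genes, of which 44.4% were detected on all 4 arrays (7363 of 16581). The count as such therefore does not set the members apart, and what the data give is which members were detected. No set test was made. A probe that is not well above background does not show that its transcript was absent. RNA was taken from whole cultures, so fewer expressing cells and less RNA per cell cannot be told apart.

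**Figure D1:**
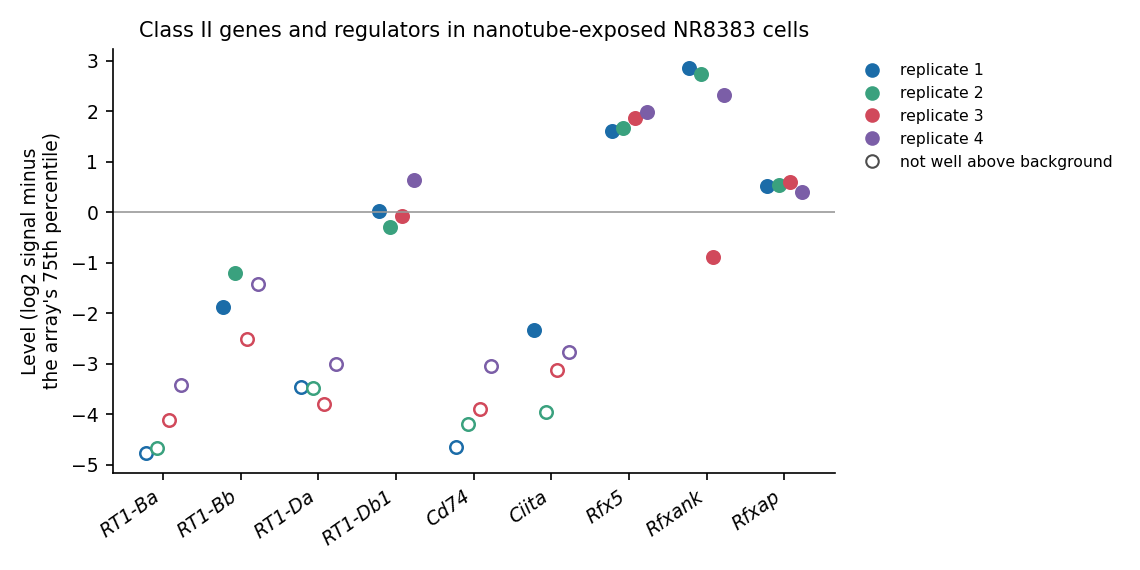
Level (log2 signal minus the array's 75th percentile) of the 9 members on each of the 4 arrays, taking the brighter of the Ciita probes. Filled points were well above background and open points were not; Rfx5, Rfxap, Rfxank and RT1-Db1 are filled throughout, and Rfxank is low on replicate 3 at -0.88.

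Cd74 gave the most densely sampled reading of the set, because its probe was spotted 10 times on every array. None of its 40 spots was well above background. On the 38 spots not marked as outliers the processed signal ran from 4.28 to 23.2 with a median of 5.45. The probe averages were 5.11, 7.19, 6.59 and 5.91 signal units on replicates 1 to 4, beside medians of 5.16, 5.68, 5.23 and 4.58 over the 308 negative control spots of each array. Negative control spots at or above the Cd74 average made up 53.6%, 3.57%, 10.4% and 2.60%. The averages on replicates 2 and 4 thus lay near the upper end of the negative controls and that on replicate 1 near their median. Single bright spots, up to 23.2, 14.6 and 11.2 on replicates 2, 3 and 4, raised the averages there. The medians over the spots were 5.06, 6.06, 5.18 and 4.84 on replicates 1 to 4. On replicates 2, 3 and 4 these lay closer to the control medians than the averages did. The spots of Cd74 are spread over the array and none fell in the dim centre of replicate 3.

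Neither alpha chain gene was detected on any array. RT1-Ba, the alpha chain of the RT1-B molecule, gave 4.68, 5.18, 5.69 and 4.58 signal units on replicates 1 to 4, and at least 27.9% of the negative control spots were as bright on each array. RT1-Da, the alpha chain of RT1-D, gave 11.7, 11.8, 7.04 and 6.07 as the average of its spots, with 0.97% to 5.52% of negative control spots as bright. Its 2 spots differed from each other. The spot at row 92 read 30.0, 27.2, 7.81 and 7.59, and was well above background on replicate 1, while the spot at row 124 read 4.53, 5.09, 6.35 and 4.85. On replicates 1 and 2 the spot at row 92 was brighter than every negative control spot, the highest being 18.9 and 23.4. The averages of RT1-Da, also in its plotted level, therefore join a brighter and a dimmer spot.

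Of the beta chain genes among the members, RT1-Db1 was well above background on all 4 arrays and RT1-Bb on 2. RT1-Bb, the beta chain of RT1-B, gave 34.8, 56.8, 17.3 and 18.3 signal units, and was well above background on replicates 1 and 2 and not on replicates 3 and 4. No negative control spot reached it on replicates 1, 2 and 4, and 1.62% did on replicate 3. With the software's less strict mark, a signal that is positive and significant, it counted as detected on all 4 arrays. Its neighbouring spots on replicate 3 were not dim (median deviation 0.19 log2 units), so its low reading there was outside the dim area.

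RT1-Db1, the beta chain of RT1-D, was the member among the presenting chains that was detected throughout. Its probe gave 131, 107, 93.3 and 76.2 signal units on replicates 1 to 4. As levels these were 0.03, -0.29, -0.08 and 0.64, a mean of 0.08 ± 0.40 (SD, n = 4), close to the array's 75th percentile. The highest level, on replicate 4, was 1.90 times the lowest, on replicate 2, although the signal itself was lowest on replicate 4. With scaling on spike-in controls the order turned, and replicates 1 to 4 read 0.54, 0.30, -0.29 and -0.25. Both of its spots were well above background on every array, with 150, 103, 146 and 71.3 on one and 114, 111, 59.7 and 81.4 on the other. Replicate 3 is where they differed most. The SD of RT1-Db1 was larger than that of 75.7% of the detected genes, whose median SD was 0.25. The probe of its neighbour RT1-Db2, a further beta chain gene of RT1-D, was well above background on no array (-4.25 ± 0.59, SD, n = 4). Whether the RT1-Db1 probe also binds transcripts of other beta chain genes was not tested.

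**Figure D2:**
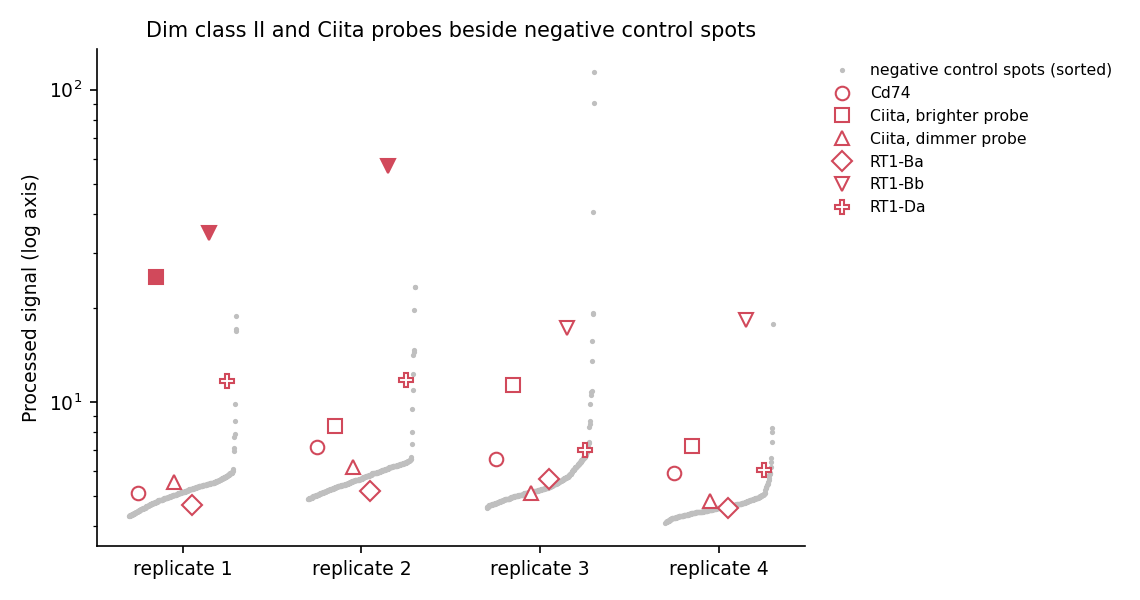
Processed signal (log axis) of the class II and Ciita probes that were not well above background on all 4 arrays, beside the 308 negative control spots of each array in grey, sorted by signal. Filled symbols were well above background on that array. RT1-Bb on replicates 1 and 2 and the brighter Ciita probe on replicate 1 stand above the grey points. RT1-Bb on replicate 4, drawn open, lies just above them. Cd74 and RT1-Ba lie among the grey points.

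Ciita, the coactivator gene, was represented by a brighter and a dimmer probe. The brighter probe gave 25.2, 8.38, 11.3 and 7.24 signal units on replicates 1 to 4 and was well above background on replicate 1 alone. On replicate 1 no negative control spot was as bright, and on the other arrays 1.30% to 2.92% were. With the less strict mark it counted as detected on all 4 arrays. The dimmer probe gave 5.55, 6.17, 5.10 and 4.82, with 18.8% to 64.9% of negative control spots as bright, and was well above background on no array. The spot of the brighter probe is inside the dim central area of replicate 3, where the median deviation of 69 neighbouring spots was -1.96 log2 units. The spot's own deviation was smaller, at -0.36, and 66 of the 69 neighbours were displaced further down. Those neighbours were chosen as well above background on the other arrays, which this spot was on replicate 1 alone. A reading near background has little room to fall, so the spot's deviation does not show how far it was dimmed. With the neighbours' deviation subtracted on every array, its levels were -2.82, -4.44, -1.15 and -2.29 on replicates 1 to 4. The signals of this probe as measured on replicates 2 and 4 were below the stricter mark as well, with local deviations of 0.41 and -0.40.

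Rfx5 and Rfxap varied little between the cultures. Rfx5, which encodes the DNA-binding subunit of the complex, gave 390, 416, 359 and 194 signal units, and levels of 1.61, 1.67, 1.87 and 1.98, a mean of 1.78 ± 0.17 (SD, n = 4). All 4 readings lay within 1.29-fold of each other. Rfxap, the RFX-associated protein gene, gave 182, 189, 148 and 64.2 signal units and levels of 0.51, 0.53, 0.59 and 0.39, a mean of 0.50 ± 0.08 (SD, n = 4), within 1.15-fold. Its SD was below that of all but 9.36% of the detected genes, and that of Rfx5 was below that of all but 31.7%. Spike-in scaling shifted the detected genes as a whole, with medians of 0.44, 0.53, -0.16 and -0.79 on replicates 1 to 4, and the SDs then became 0.53 for Rfx5 and 0.74 for Rfxap.

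Rfxank, the ankyrin-repeat subunit gene, had the widest spread of the members. Its signal was 918, 868, 53.5 and 245 on replicates 1 to 4, and its level 2.84, 2.73, -0.88 and 2.32, a mean of 1.75 ± 1.77 (SD, n = 4). Replicates 1, 2 and 4 lay together, and replicate 3 stood apart from their median by -3.61 log2 units. The probe has 1 spot, at row 186 and column 82 of a grid of 384 rows and 164 columns and is inside the dim central area. Among 64 neighbouring spots the median deviation on replicate 3 was -3.21 log2 units, and 21 of the 64 were displaced further down than Rfxank. Rfxank thus lay within the quartiles of its neighbours, -3.74 and -2.15. Replicate 4 had a shallower dim area at the same place, of 357 spots with a deepest local deviation of -0.83, all also dim on replicate 3. Rfxank was the member inside it, with a local deviation of -0.55. Without replicate 3, and with replicate 4 as measured, the mean of Rfxank was 2.63 ± 0.27 (SD, n = 3). With the neighbours' deviation subtracted on every array the readings were 2.26, 2.17, 2.35 and 2.94. This subtraction also lowered replicates 1 and 2, whose local deviations were 0.53 and 0.49. Those deviations are taken against arrays that include the dim areas of replicates 3 and 4. The spot was still marked well above background on replicate 3.

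**Figure D3:**
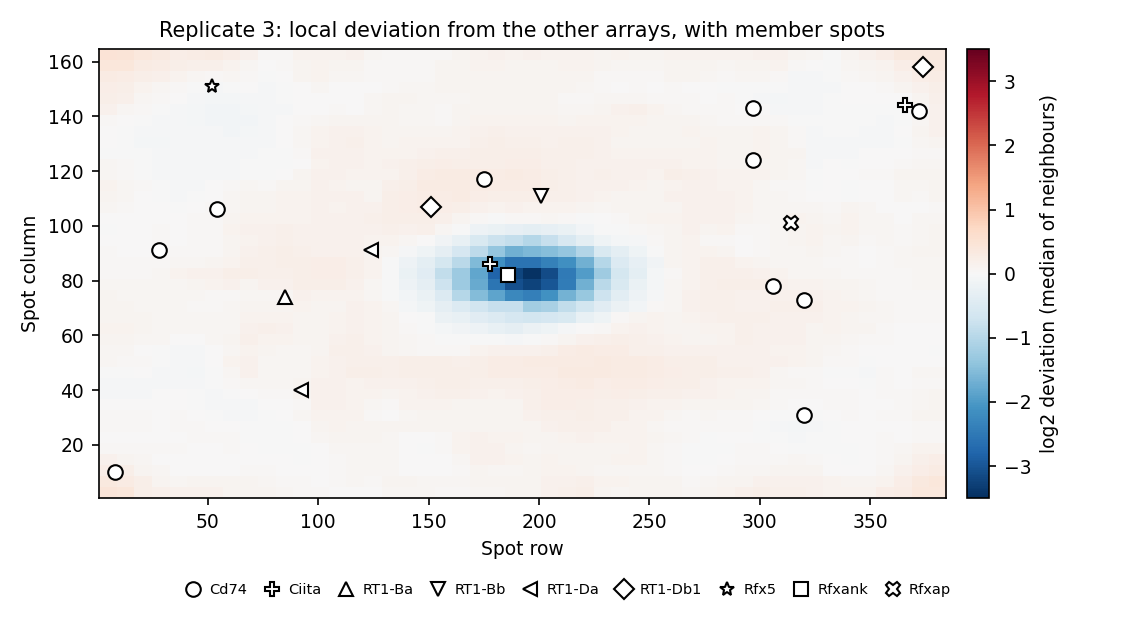
Spot map of the array of replicate 3, by spot row and column, coloured by the local deviation (median over neighbouring spots of the log2 level minus the median of the other 3 arrays), with the 21 member spots as symbols. The spots of Rfxank and of the brighter Ciita probe lie in the blue area in the centre; the other 19 spots lie outside it.

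The dim area held 1988 of 58717 sample spots on replicate 3 (3.39%), between rows 152 and 239 and columns 66 and 97, with a deepest local deviation of -3.59. It was defined by a local deviation below -0.5 among the neighbours within 12 rows and 6 columns. Of the 21 member spots, 2 were inside. The nearest spots of other members, those of RT1-Db1 at row 151, of Cd74 at row 175 and of RT1-Bb at row 201, had local deviations of 0.26, 0.28 and 0.19. Of the detected genes, 328 had their probe in the area, and the median SD was 0.43 for these and 0.25 for the others. The 4 detected members had a median SD of 0.28.

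Of 16 genes listed for class II peptide loading and turnover, 12 were detected, beside 44.4% over all measured genes. The missing ones were all class II chains themselves. RT1-DMa and RT1-DMb, which encode the molecule that exchanges the invariant chain remnant for peptide, were detected with readings of 4.52, 4.46, 5.19 and 5.36 and of 4.42, 4.35, 5.11 and 5.38 on replicates 1 to 4. Both were thus lower on replicates 1 and 2 than on 3 and 4 on this scale; with spike-in scaling replicate 4 was the lowest for both, at 4.47 and 4.50. RT1-DOa and RT1-DOb, the chains of the molecule that restrains DM, read -4.16 ± 0.53 and -4.22 ± 0.66 (SD, n = 4) and were well above background on no array. The same held for RT1-Ha (-4.21 ± 0.53, SD, n = 4) and RT1-Db2. The DM pair was thus detected on all arrays, where of the presenting chains RT1-Db1 alone was.

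Transcripts for enzymes of the endosomal steps were detected. Ctss, the cathepsin that trims the invariant chain in antigen-presenting cells, read 5.53 ± 0.33, Ctsl 1.98 ± 0.36 and the asparagine endopeptidase gene Lgmn 3.84 ± 0.09 (SD, n = 4). Ifi30, the reductase that opens disulfide bonds of antigens, read 7.91 ± 0.37, and Marchf1, the ligase that marks class II molecules for removal from the surface, 1.77 ± 0.09 (SD, n = 4). The probe of Marchf8, a relative of Marchf1, was in the dim area. The list's detected genes had a median SD of 0.30.

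**Figure D4:**
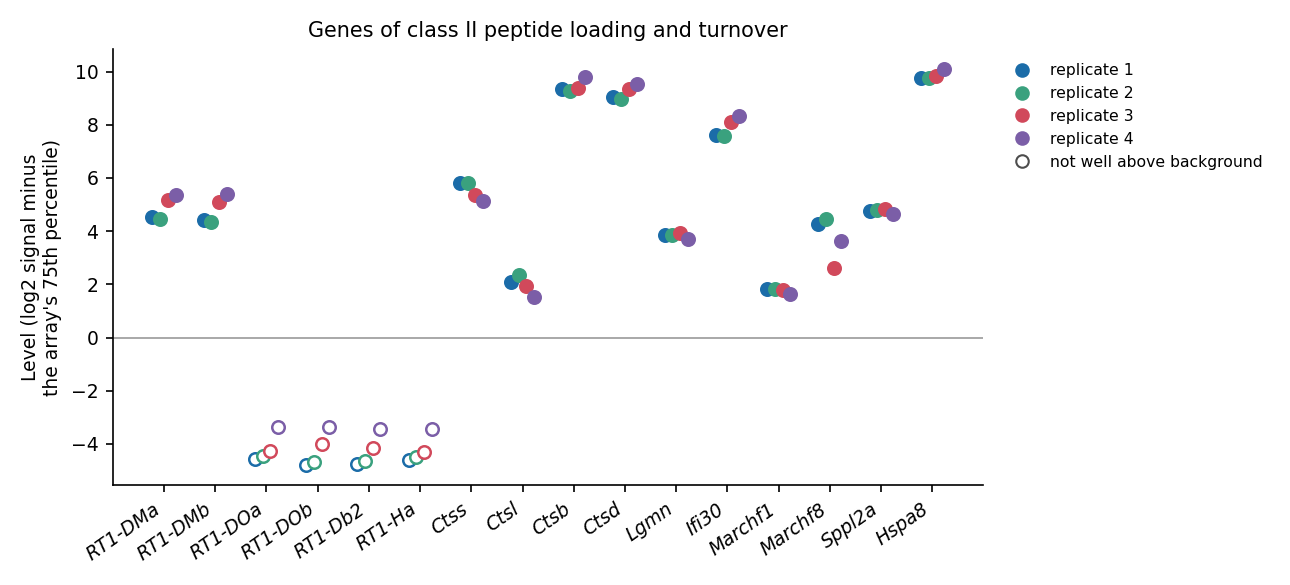
Level (log2 signal minus the array's 75th percentile) of the 16 genes listed for class II peptide loading and turnover, on each of the 4 arrays. RT1-DOa, RT1-DOb, RT1-Db2 and RT1-Ha, drawn open, were well above background on no array; the 12 filled genes were on all 4. Marchf8 is low on replicate 3, where its probe is in the dim area.

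Of 13 measured genes listed as partners of CIITA and of the X and Y elements, 11 were detected (84.6%, beside 44.4% over all measured genes). This list also holds other genes of the RFX family, Rfx1, Rfx2 and Rfx7. Creb1, which binds beside RFX, read 1.03 ± 0.22, and the NF-Y subunit genes Nfya and Nfyc read -0.53 ± 0.28 and 0.71 ± 0.09 (SD, n = 4). Nfyb, the remaining NF-Y subunit gene, and Rfx2 were well above background on 2 arrays each, and the probe of Rfx2 is in the dim area. Ep300, Kat2b and Rfx3 were not measured.

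Of 21 genes listed for interferon gamma signalling and for the induction or repression of Ciita, 14 were detected (66.7%, beside 44.4% over all measured genes). The interferon gamma receptor genes Ifngr1 (5.37 ± 0.15) and Ifngr2 (4.18 ± 0.15), the kinase genes Jak1 (4.67 ± 0.15) and Jak2 (0.39 ± 0.15), and the transcription factor gene Irf1 (3.39 ± 0.21) were detected (all SD, n = 4). Ifng itself, Irf8, a partner of PU.1 in myeloid cells, Prdm1, a repressor of Ciita, Il10 and Csf2rb were well above background on no array. Il4r was so on 2 arrays and Socs1, an inhibitor of the kinases, on 1. The Irf8 probe is in the dim area of replicate 3, and its readings on the other 3 arrays were not well above background either.

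Genes of class I presentation, the route for peptides made inside the cell, were detected in 22 of 22 measured cases, beside 44.4% over all measured genes. B2m, the shared light chain, read 8.65 ± 0.08 and the heavy chain gene RT1-A2 8.68 ± 0.37 (SD, n = 4). The peptide transporter genes Tap1 and Tap2 read 0.92 ± 0.38 and 3.49 ± 0.37, and the immunoproteasome genes Psmb8 and Psmb9 7.01 ± 0.19 and 6.03 ± 0.26 (SD, n = 4). Class I heavy chain genes are close relatives, and signal may be shared between their probes. Nlrc5, the class I counterpart of Ciita, was not measured, nor were Erap1 and RT1-CE1. Of the co-stimulation genes 5 of 10 were detected (50.0%, near the 44.4% over all measured genes). These were Cd83 (5.48 ± 0.03), Icam1 (5.51 ± 0.43), Cd274 (-0.25 ± 0.02), Tnfsf9 (-0.27 ± 0.27) and Cd1d1 (0.32 ± 0.50) (SD, n = 4). Cd80 and Cd86, the ligands of CD28, were well above background on no array, as were Pdcd1lg2 and Tnfsf4, and Cd40 was so on 1.

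**Figure D5:**
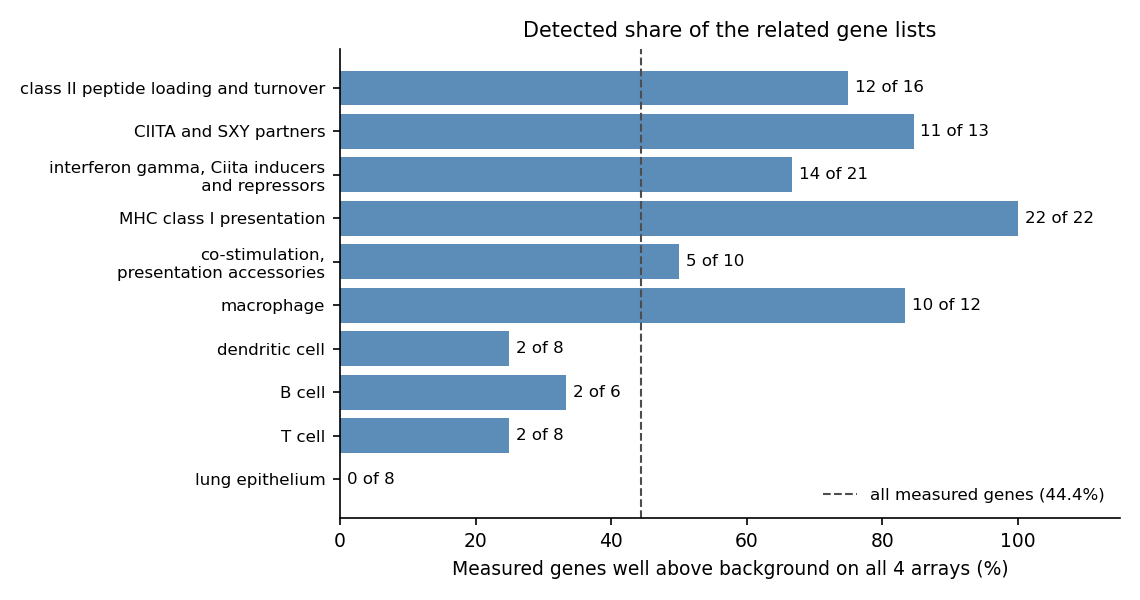
Share of measured genes that were well above background on all 4 arrays, for each related gene list and cell type marker list, with counts beside the bars and a dashed line at the share of all measured genes (44.4%). Class I presentation stands at 22 of 22 and lung epithelium at 0 of 8.

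Profiles over the 4 arrays were close to those of many other genes. Measured as the root mean square difference of levels centred on each gene's own mean, Rfx5 was nearest to Rab14 (0.0061) and Smim20 (0.0098), and Rfxap to Lgmn (0.0046) and Ppp2r5c (0.0084), out of 7032 detected genes outside the dim area. Within a difference of 0.1 lay 1071 genes for Rfx5 and 1016 for Rfxap, and 38 for RT1-Db1, whose nearest were Abcg8 (0.015) and Hycc1 (0.024). No such distance is given for Rfxank, since its probe is in the dim area and genes with probes there were left out. These arrays are replicates of 1 condition, so these distances describe how the arrays differed and nothing beyond that.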

How the data were processed

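Per the file headers, the authors deposited spot intensities from 1-colour arrays, read with Agilent Feature Extraction 11.0.1.1, a version the submitters' processing notes give too. The processed signal is background-subtracted and spatially detrended within an array, with no normalization between arrays. Other deposited columns used are flags of 0 or 1. The headers name an older genome build than GRCr8, so no probe coordinates are given.

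Levels are log2 processed signal, averaged over a probe's spots without those flagged as non-uniform or population outliers, minus the array's own 75th percentile over 45598 probes. RefSeq accessions named 21109 probes. The brightest probe stood for a gene, and over 50% of a probe's spots had to be well above background. Arrays give no read depth; their number limits the precision. With 1 group there was no test between conditions. The labels call the samples biological replicates. Members, lists and the rule for named genes (a roster, plus up to 6 genes per list against its majority in detection, alphabetically) were chosen with earlier results of these data known; a few further listed genes were picked after their values were seen, and some listed genes are not reported here. The search for dim areas was tried on simulated data with a patch of even depth and sharp edge, and neighbours drawn at random. The area on replicate 3 was graded, so that trial did not test its edges or spots near background. Alternatives covered background correction (limma 3.58.1, normexp, offset 50, on median spot signal, since the files hold no mean signal), 3 scalings, probe choice, detection rules, the dim area and left-out replicates. Python 3.11.15 and R 4.3.3 were used.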

Additional observations from a re-analysis of the deposited data

Results flagged for a closer look

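Of 35 detected genes named above, 1 had a reading far from the other 3 by Dixon's criterion. Rfxank on replicate 3 (-0.88, against 2.84, 2.73 and 2.32) had a gap of 0.86 of the range. Chance flags about 1 in 20 groups of 4. The spots around it on that array were displaced by a median of -3.21 log2 units.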

How the results depend on the processing

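No paired analysis was possible because there is 1 group. The count of 4 detected members (RT1-Db1, Rfx5, Rfxank and Rfxap) stayed 4 with all probes of a gene detected, at 3 of 4 arrays, without the dim area, with outlier spots kept and without each replicate in turn (4 to 4), and became 6 under the less strict mark, which added RT1-Bb and Ciita while 55.4% of all genes passed. The 2 member spots in the dim area stayed 2 with a local deviation below -1 and with a smaller window. Spike-in scaling, the percentile over detected probes and, for genes with 1 probe, the mean over probes cannot move a mean over the 4 arrays. Among 32 other alternative means for the detected members, 2 moved by more than the replicate SD: under normexp Rfx5 became 1.18 and Rfxap 0.40. Of 41 for the other members 5 did, all under normexp, where Cd74 became -1.17; those members lie near background, where a level is set by the correction. Leaving out replicate 3 moved the mean of Rfxank from 1.75 to 2.63.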
